A study of Mus musculus with 2 samples.

Results

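The genes described are 10 heat-shock proteins and co-chaperones of the mouse: Hspa1a, Hspa1b, Hspa8, Hsph1, Hsp90aa1, Hspe1, Dnaja1, Dnaja4, Dnajb1 and Bag3. They were chosen by symbol, and all 10 were found among the 27998 genes of both count matrices. Retinal cells that carried the Cx3cr1-YFP reporter, in which the promoter of the fractalkine receptor gene drives a yellow fluorescent protein, were sorted alive and profiled by 10x Genomics 3' end single-cell RNA sequencing. The light-damaged group were male CB6F1 Cx3cr1-YFP mice, 8 months old, which had been kept in the dark overnight, had their pupils dilated, stood under LED light of 10 klux for 4 h and recovered for 5 days. The control group were mice of the same strain, sex and age without light damage. Each group was 1 pool of retinas from 5 to 8 mice and gave 1 library, and both pools were digested with collagenase A and DNase I for 30 min at 37 °C before the sort.

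Chaperones of the Hsp70 family bind exposed stretches of unfolded proteins in cycles driven by ATP. J-domain proteins bring clients to Hsp70 and start ATP hydrolysis, nucleotide exchange factors such as Hsp110 and the BAG proteins release the client, and Hsp90 finishes many signalling proteins. When unfolded proteins accumulate, heat shock factor 1 binds heat shock elements in the promoters of many of these genes, and brain macrophages are known to raise such transcripts also when tissue is broken up with warm enzymes.

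The light-damaged matrix held 58187149 unique molecular identifiers (UMIs), 1 for each captured transcript molecule, over 6821 barcodes, and the control matrix held 20056338 over 4003. A barcode of the light-damaged library had a median of 7351 UMIs and one of the control library 4846, and the lowest barcodes held 3059 UMIs in light-damaged and 1227 in control. After filtering, 6427 light-damaged and 3820 control cells were kept, and 47 barcode sequences occurred in both libraries. Microglia were cells in which P2ry12, Tmem119, Siglech, Gpr34 and P2ry13 summed to at least 20 of 10000 UMIs (4385 light-damaged and 3374 control cells). Perivascular macrophages were cells with a sum of at least 10 for Mrc1, F13a1, Cd163, Lyve1 and Cbr2 (84 and 53 cells). The third class, with both sums under 10, held 1171 light-damaged and 244 control cells. With 1 library per group there was no test between groups, and light damage and library cannot be told apart. Intervals in brackets are at the 95% level and stand for counting error alone.

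Markers that the rules did not use were read to check the names of the classes. Further microglia genes such as Cx3cr1 summed to 18309 CPM (counts per 1000000 UMIs of the class) in light-damaged and 19744 CPM in control microglia, against 4716 and 4472 CPM in the perivascular class. Further perivascular genes such as Pf4 summed to 2444 CPM in light-damaged and 3232 CPM in control perivascular macrophages, against 113 and 95 CPM in microglia, so both names were kept. The third class was not the same kind of cell in both libraries. Its light-damaged cells held the macrophage genes Lgals3 (1189 CPM, against 169 in control), Gpnmb (647 against 31.3) and Ccr2 (65.0 against 1.49). Its control cells held rod photoreceptor markers, of which all 10 passed the minimum level and summed to 375 CPM in light-damaged and 17490 CPM in control cells, and vascular markers at 65.8 and 563 CPM. It is therefore called here by its rule and not "other macrophages". Neutrophil markers summed to at most 6.28 CPM and T, NK and B cell markers to at most 15.2 CPM in any class of either library.

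All 10 genes are protein coding, and their positions in GRCm38 lie on 8 different chromosomes. Hspa1a (chr17:34969190-34972156, minus strand) and Hspa1b (chr17:34956436-34959238, minus strand), the inducible Hsp70 genes, lie 9951 bases apart. The other Hsp70 and Hsp90 genes are Hspa8 (chr9:40800984-40810087, plus strand), Hsph1 (chr5:149614287-149636376, minus strand) and Hsp90aa1 (chr12:110690605-110702728, minus strand). The J-domain genes are Dnaja1 (chr4:40722150-40737149), Dnaja4 (chr9:54698873-54716315) and Dnajb1 (chr8:83608193-83612653), and Bag3 (chr7:128523616-128546981) and Hspe1 (chr1:55088132-55091307) complete the set, all on the plus strand. Promoter windows of 300 bases, with 250 bases before and 50 after the start of transcription, came from RefSeq on GRCm38.p6, and 8 of the 10 genes matched an entry. Heat shock elements are built from the unit GAA and its reverse complement TTC. The letters GAANNTTC or TTCNNGAA, each its own reverse complement, were found in a window of 7 of these 8 genes, and in 17.0% of the 27025 genes with a window. The longer forms of 3 units, GAANNTTCNNGAA and TTCNNGAANNTTC, searched on both strands and overlapping the shorter ones, were found in Hspe1 and Hsph1 and in 0.662% of all genes. Dnajb1 had none of these letters in this window. The following windows, in capitals where these letters match, show the near-identical inducible Hsp70 pair, the pair of genes with the longer form, and Dnaja4, whose ratio between the libraries was farthest from 1 outside microglia:
Hspa1a (chr17:34972107-34972406, minus strand): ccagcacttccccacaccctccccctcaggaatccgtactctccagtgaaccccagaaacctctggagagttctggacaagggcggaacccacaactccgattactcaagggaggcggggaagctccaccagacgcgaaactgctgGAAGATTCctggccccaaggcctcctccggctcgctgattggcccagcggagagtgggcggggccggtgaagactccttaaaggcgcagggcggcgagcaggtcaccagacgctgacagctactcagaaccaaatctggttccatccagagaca
Hspa1b (chr17:34959189-34959488, minus strand): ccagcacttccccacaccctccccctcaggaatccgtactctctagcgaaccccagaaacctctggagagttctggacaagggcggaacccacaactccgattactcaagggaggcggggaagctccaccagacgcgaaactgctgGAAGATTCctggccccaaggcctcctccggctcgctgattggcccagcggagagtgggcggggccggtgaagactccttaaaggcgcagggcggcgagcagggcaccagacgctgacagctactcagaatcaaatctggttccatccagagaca
Hsph1 (chr5:149636266-149636565, minus strand): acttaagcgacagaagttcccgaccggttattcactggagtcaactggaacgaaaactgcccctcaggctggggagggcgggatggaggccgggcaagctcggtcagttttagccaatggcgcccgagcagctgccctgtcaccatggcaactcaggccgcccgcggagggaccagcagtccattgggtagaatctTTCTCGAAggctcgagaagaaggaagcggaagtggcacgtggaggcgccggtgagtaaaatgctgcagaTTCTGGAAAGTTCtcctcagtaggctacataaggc
Hspe1 (chr1:55087898-55088197, plus strand): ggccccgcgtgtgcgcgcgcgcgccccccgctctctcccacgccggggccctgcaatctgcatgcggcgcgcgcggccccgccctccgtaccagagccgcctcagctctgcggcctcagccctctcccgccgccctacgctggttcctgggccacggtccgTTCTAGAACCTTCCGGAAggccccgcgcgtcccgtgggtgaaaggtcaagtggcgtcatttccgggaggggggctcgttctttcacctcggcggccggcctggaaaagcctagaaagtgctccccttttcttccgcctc
Dnaja4 (chr9:54699309-54699608, plus strand): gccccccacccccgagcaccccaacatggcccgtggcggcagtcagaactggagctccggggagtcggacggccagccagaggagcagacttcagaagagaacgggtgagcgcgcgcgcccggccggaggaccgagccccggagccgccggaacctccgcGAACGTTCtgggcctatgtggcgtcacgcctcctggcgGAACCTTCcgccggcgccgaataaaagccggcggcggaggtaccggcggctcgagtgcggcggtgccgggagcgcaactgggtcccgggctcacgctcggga
The Hspa1a and Hspa1b windows were identical at 296 of 300 positions (98.7%). Counted from 1 at the 5′ end, with the Hspa1a base first, they differed by C44T, T47C, T249G and C276T, none of them in the matched letters GAAGATTC, which begin 104 bases before the start in both. The capitals of Hspe1 form 1 unbroken run and lie between Hspe1 and the oppositely transcribed Hspd1, which encode the mitochondrial partners Hsp10 and Hsp60. A match is a description of letters and not a bound site.

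A shared 3′ end limits which gene a read can be given to. The last 300 bases of the Hspa1a and Hspa1b transcripts had no 50-base stretch in common with any other gene, so the near-identical promoters did not extend to the counted end. Hspa8 shared 73.7% of its 50-base stretches with transcripts of other genes, Dnaja1 52.3%, Hspe1 43.8% and Hsp90aa1 37.6%, so the counts of these 4 genes are uncertain. The other 6 shared none.

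In microglia the 10 genes were lower or level in the light-damaged library. They summed to 14398 CPM in light-damaged and 22122 CPM in control microglia, where a share of 10000 CPM is 1% of all transcripts. Among them 4 were over 1.5 times lower and 0 over 1.5 times higher; of the 4916 genes with a mean of at least 20 CPM, 5.72% were over 1.5 times lower and 4.68% over 1.5 times higher. The median log2 ratio, light-damaged over control, was -0.46 for the 10 genes and -0.02 for all genes.

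Hspa1a, the most abundant of them, was at 7591 CPM in light-damaged and 13392 CPM in control microglia, 1.76 times lower (1.75 to 1.77). Hspa1b, which encodes nearly the same protein, was at 621 CPM in light-damaged and 839 CPM in control microglia, 1.35 times lower. Hspa8, the Hsp70 made without stress, was at 2597 and 2693 CPM in the same order. The inducible genes thus differed between the libraries, Hspa1a past 1.5-fold, while Hspa8 differed by 1.04-fold (1.03 to 1.05). Hsph1, the Hsp110 nucleotide exchange factor, was at 237 CPM in light-damaged and 331 CPM in control microglia. Bag3, an exchange factor that links Hsp70 to small heat-shock proteins and to autophagy, was at 122 and 156 CPM.

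Hsp90aa1, the stress-inducible Hsp90, was at 1582 CPM in light-damaged and 2481 CPM in control microglia, 1.57 times lower (1.55 to 1.59). The J-domain genes did not move alike. Dnaja1 was at 526 CPM in light-damaged and 971 CPM in control microglia, 1.84 times lower (1.81 to 1.89). The rarest gene, Dnaja4, was at 22.6 and 40.6 CPM, 1.79 times lower (1.61 to 1.99). Dnajb1, the classical Hsp40, was at 344 CPM in light-damaged and 429 CPM in control microglia, 1.25 times lower, a smaller difference than for both Dnaja genes. Hspe1, the mitochondrial Hsp10, was at 755 and 789 CPM, close to level like Hspa8. Other markers also differed between the microglia of the libraries: 10 rod markers, none of them at 0, summed to 132 CPM in light-damaged and 627 CPM in control cells, and the median mitochondrial share of a cell was 2.61% and 1.55%. Their part in the difference was not tested.

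**Figure D1:**
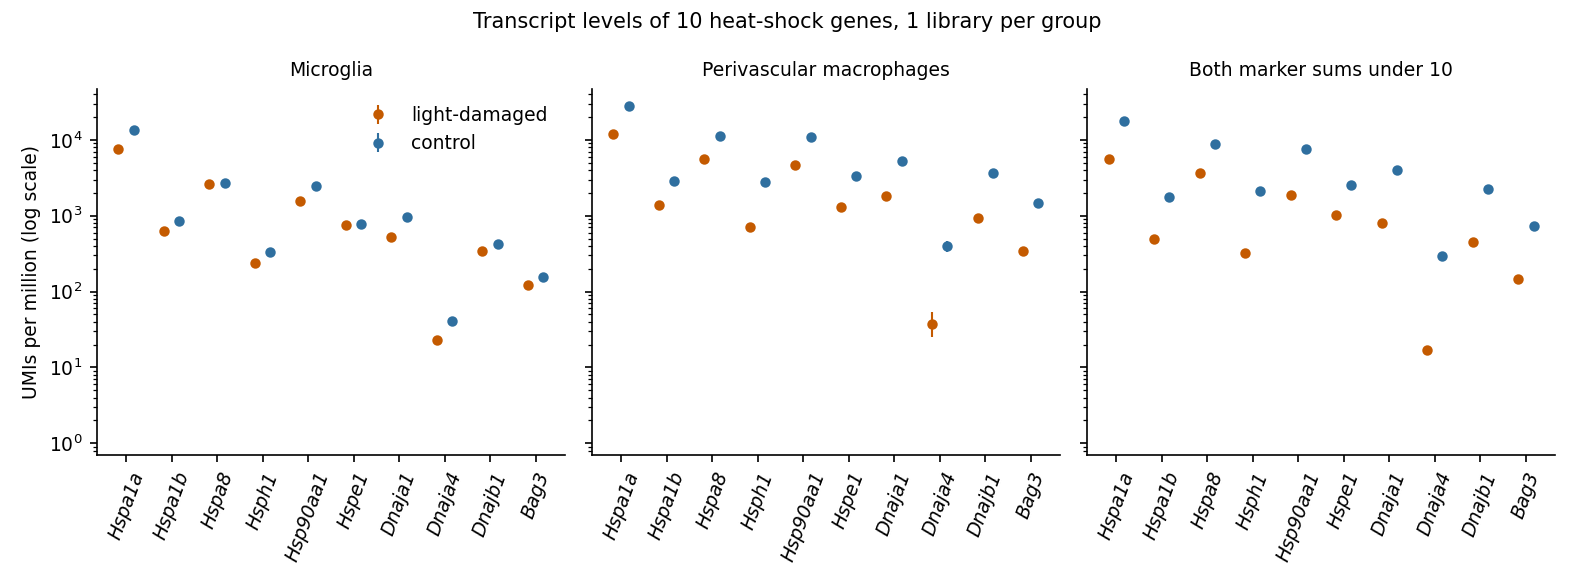
Transcript level of each of the 10 genes (CPM, log axis) in the light-damaged (orange) and control (blue) library, by cell class, with 95% counting intervals. All 10 light-damaged points lie below the control points in every class. The points of a gene lie closest together in microglia, where those of Hspa8 and Hspe1 are nearly level.

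In microglia the summed level of the heat-shock genes differed with the depth of the cells within each library. Within the light-damaged library, microglia were split into 3 sets of equal size by UMIs per cell, and the summed level was 23842 CPM in the shallowest, 15460 CPM in the middle and 9893 CPM in the deepest set. Within the control library these sets gave 28646, 25202 and 17476 CPM. The share thus went down over the 3 sets in either library, and light-damaged microglia were deeper, with a median of 6775 UMIs against 4779.5 in control.

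Set beside cells of equal depth, the libraries were closest between 4000 and 6000 UMIs. The 603 control microglia under 3000 UMIs, a depth at which there was no light-damaged cell, held 24931 CPM, less than the control cells just above. At 3000 to under 4000 UMIs, the sum was 23466 CPM in light-damaged and 30642 CPM in control microglia. Between 4000 and 5000 UMIs it was 25465 and 25981 CPM, and between 5000 and 6000 UMIs 21615 and 22327 CPM. At 6000 to under 8000 UMIs, the range with most cells, it was 14755 CPM in 1330 light-damaged and 17239 CPM in 674 control cells. At 8000 to under 10000 UMIs it was 11212 CPM in 735 light-damaged and 15505 CPM in 170 control cells, and from 10000 UMIs on it was 8866 CPM in 675 and 19873 CPM in only 46 cells. The sum thus did not fall evenly with depth in the control library. The median log2 ratio of the 10 genes was -0.11 at 3000 to under 4000 UMIs, 0.16 and 0.12 in the next 2 ranges, then -0.13 and -0.45, and -1.43 from 10000 UMIs on, where all 10 genes were below 0. As 1 range, chosen after these values were seen, microglia with 4000 to under 6000 UMIs (1194 light-damaged and 1283 control cells) had a median log2 ratio of the 10 genes of 0.15, opposite in sign to that over all microglia and in the 4 ranges outside it, with -0.01 for all genes.

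At this depth 1 of the 10 genes, Dnaja4, was over 1.5 times lower (33.6 CPM in light-damaged, 51.8 CPM in control; 5.17% of all genes were that much lower), and 0 were over 1.5 times higher (5.25% of all genes). Hspa1a was then at 12782 CPM in light-damaged and 14370 CPM in control microglia, a ratio of 0.889 (0.881 to 0.898). Dnajb1 was at 634 and 466 CPM, a ratio of 1.36 (1.30 to 1.43), and Bag3 at 221 and 169 CPM, a ratio of 1.30 (1.20 to 1.41). The order of the libraries for Dnajb1, Bag3, Hspa1b, Hspa8 and Hspe1 was thus the reverse of that over all microglia, while the interval of Hsph1 held 1 (0.999 to 1.12). What part depth has in the difference over all microglia was not tested beyond these values.

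**Figure D2:**
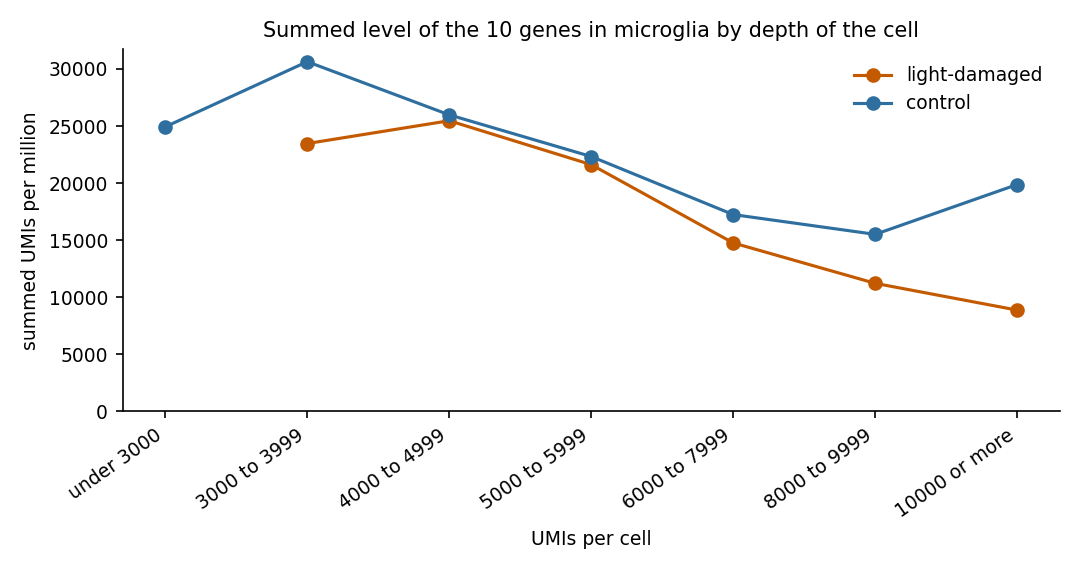
Summed level of the 10 genes (CPM) in microglia grouped by UMIs per cell, in the light-damaged (orange) and control (blue) library. The lines lie closest between 4000 and 6000 UMIs and are apart at 3000 to under 4000 and from 6000 on. No light-damaged cell lies under 3000.

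Perivascular macrophages, which lie along vessels, held more of these transcripts and differed more between the libraries. The 10 genes summed to 28831 CPM in light-damaged and 70244 CPM in control cells. All 10 were over 1.5 times lower with light damage, where 13.8% of 4386 genes were that much lower and 17.8% that much higher, and their median log2 ratio was -1.46, against 0.07 for all genes. Hspa1a was at 11997 CPM in light-damaged and 28317 CPM in control cells, and Hspa8 at 5580 and 11386 CPM. Hsph1 was at 719 CPM in light-damaged and 2785 CPM in control cells, 3.87 times lower (3.49 to 4.30). Dnajb1 was at 946 and 3623 CPM, 3.83 times lower (3.50 to 4.19), and Bag3 at 346 and 1450 CPM, 4.20 times lower (3.62 to 4.87). Dnaja4 was at 37.7 CPM in light-damaged and 394 CPM in control cells, 10.4 times lower (7.01 to 16.0). This Dnaja4 ratio rests on few cells. With each cell thinned to the same number of UMIs, 25.5% of 47 control cells held any Dnaja4, and 3 cells held 68.9% of its UMIs. The remaining 4 genes, Hspa1b, Hsp90aa1, Dnaja1 and Hspe1, were between 2.03 and 2.94 times lower. Only 84 and 53 cells stand behind these values, and perivascular genes differed between them in both directions. The 5 genes of the rule summed to 1907 CPM in light-damaged and 1717 CPM in control cells, with 1 over 1.5 times higher, F13a1 (662 against 359 CPM), and 0 lower. Of 8 further perivascular genes 5 passed the minimum level, of which 2 were over 1.5 times higher, Folr2 (467 against 240 CPM) and Ms4a7 (828 against 523 CPM), and 2 lower, Pf4 (684 against 1933 CPM) and Ccl24. In the 15 light-damaged and 10 control perivascular macrophages with 4000 to under 6000 UMIs, all 10 genes were again over 1.5 times lower (32.3% of all genes were, and 32.8% were that much higher), with a median log2 ratio of -2.16. Dnaja4 then had 0 UMIs in light-damaged and 8 UMIs in control cells, and Bag3 4 and 64.

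In cells with both marker sums under 10, the 10 genes summed to 14398 CPM in the light-damaged library, as in its microglia, and to 47740 CPM in the control library. All 10 were over 1.5 times lower (23.8% of 5028 genes were, and 22.7% were that much higher), with a median log2 ratio of -2.16 against 0.05 for all genes. Hspa1a was at 5676 CPM in light-damaged and 17721 CPM in control cells, 3.12 times lower (3.08 to 3.17). Hsph1 was at 326 and 2114 CPM, 6.48 times lower (6.18 to 6.80), and Dnaja4 at 16.9 and 294 CPM, 17.4 times lower (14.7 to 20.7). Dnaja1, Dnajb1 and Bag3 were 5.02, 5.04 and 5.01 times lower, while Hspa8 was at 3614 CPM in light-damaged and 8863 CPM in control cells, 2.45 times lower (2.40 to 2.50).

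These values compare unlike cells, as the markers above show. Markers of rods, other retinal neurons, glia, vessels, pigment epithelium or erythrocytes reached 20 of 10000 UMIs in 30 of 1171 light-damaged cells (2.56%) and in 84 of 244 control cells (34.4%). Those 84 control cells held less of the 10 genes, 12377 CPM in sum. Without such cells the sum was 14449 CPM in light-damaged and 59962 CPM in control cells, and the median log2 ratio was -2.45. Over all cells of this class, those with other retinal markers included, the perivascular genes of the second rule summed to 49.8 CPM in light-damaged and 298 CPM in control cells. Their part in the difference was not tested. In the 174 light-damaged and 42 control cells of this class with 4000 to under 6000 UMIs, the sum was 23529 and 52834 CPM, and all 10 genes were over 1.5 times lower (30.4% of all genes were, and 18.7% that much higher), with a median log2 ratio of -1.31. With lower cutoffs for the classes, so that both sums were under 5, the median was -1.54. Over all kept cells of every class 8 of 10 genes were over 1.5 times lower (8.3% of all genes) and 0 over 1.5 times higher (6.13%).

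**Figure D3:**
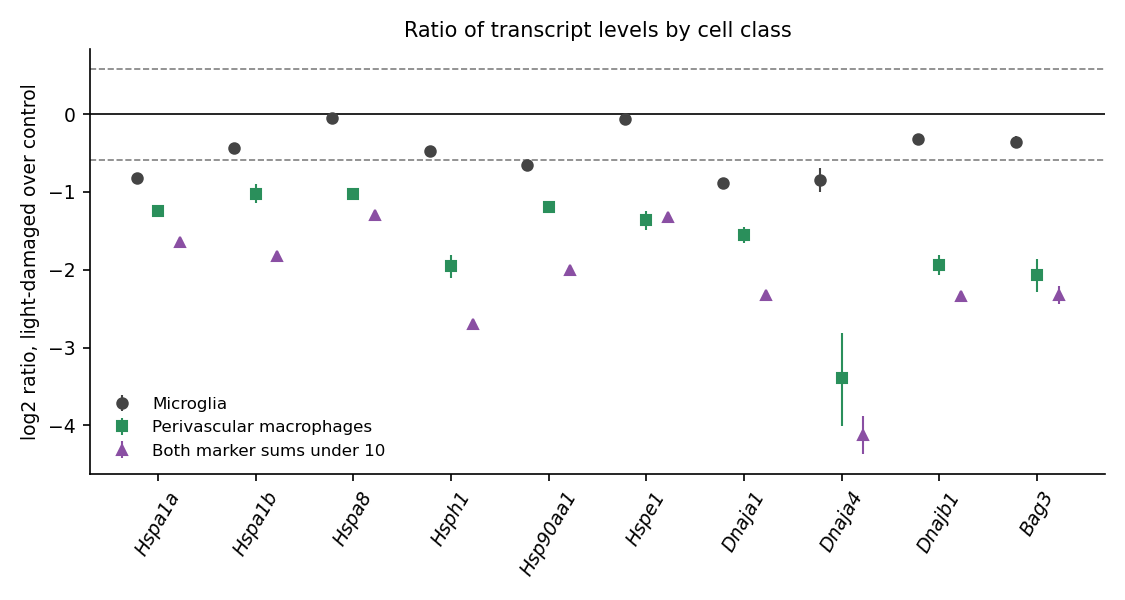
log2 ratio of each of the 10 genes, light-damaged over control, in microglia (circles), perivascular macrophages (squares) and cells with both marker sums under 10 (triangles), with 95% counting intervals. Dashed lines mark 1.5-fold, and squares and triangles lie below the lower dashed line for all 10 genes, circles for Hspa1a, Hsp90aa1, Dnaja1 and Dnaja4.

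Within each library the classes could be set side by side without the difference between libraries. In the light-damaged library all 10 genes were over 1.5 times higher in perivascular macrophages than in microglia (14.6% of all genes were, and 28.5% were that much lower), by a median log2 ratio of 1.32, and in the control library all 10 again (15.6% of all genes, with 35.6% that much lower), by 2.28. The largest ratios in the control library were those of co-chaperones, 9.69 for Dnaja4 (8.05 to 11.6), 9.30 for Bag3 (8.46 to 10.2), 8.44 for Dnajb1 (7.95 to 8.94) and 8.41 for Hsph1 (7.87 to 8.99). The ratio of Dnaja4 rests on few cells, which its counting interval does not show. At an equal number of UMIs per cell, the top 3 of 47 control perivascular macrophages held 68.9% of Dnaja4 UMIs. For Bag3, Dnajb1 and Hsph1 the top 3 held 23.4%, 24.6% and 22.4%. Hspa1a had a ratio of 1.58 in the light-damaged and 2.11 in the control library. In cells of 4000 to under 6000 UMIs the median log2 ratio of perivascular macrophages over microglia turned round in the light-damaged library, to -0.55 with 15 perivascular cells, and was 1.62 in the control library. Cells with both sums under 10 exceeded microglia by over 1.5 times for 1 gene, Dnaja1, in the light-damaged library (12.2% of all genes, with 16.2% that much lower). In the control library they did so for 9 of 10 genes, all but Hspa1a (21% of all genes, with 25.7% that much lower).

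The counts of Hspa1a and Hspa1b, which arise next to near-identical promoters, kept a ratio of the same order in all classes. There were 12.2 Hspa1a UMIs per Hspa1b UMI in light-damaged microglia (12 to 12.4) and 16.0 in control microglia (15.7 to 16.2). The ratio was 8.54 in light-damaged and 9.92 in control perivascular macrophages, and 11.5 and 10.2 in cells with both sums under 10. The order of the libraries therefore differed between the third class and the others.

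Across single cells the transcripts were spread unevenly. Cells were thinned to 2700 UMIs each, which left out 439 control microglia, 6 control perivascular macrophages and 64 control cells with both sums under 10, and no light-damaged cell. Of light-damaged microglia 91.7% held at least 1 Hspa1a UMI and 55.7% at least 10 (54.2% to 57.2%), and of control microglia 99.4% and 69.6% (67.9% to 71.3%). Before thinning, 97.9% of light-damaged and 99.9% of control microglia held 1 or more. As a measure of free RNA, the rod transducin gene Gngt1 was seen in 2.26% of light-damaged and 13% of control microglia, and Mrc1 in 0.251% and 0.852%. In the light-damaged library each of the 10 genes was seen in more microglia than Gngt1, the rarest being Dnaja4 at 4.72% (4.11% to 5.39%). In the control library Dnaja4 was seen in fewer microglia (6.95%) than Gngt1, a share that free RNA can give. Bag3 was seen in 17.6% of light-damaged and 21.9% of control microglia. The level of free RNA differs between transcripts, so the control shares of Bag3 and Dnaja4 are not read as cells that made the transcript.

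A few microglia held a large part of the transcripts. The 5% of microglia with most Hspa1a held 26.9% of its UMIs in the light-damaged and 19.3% in the control library. For Dnajb1 the top 5% held 56.6% and 54.4%, for Bag3 60.1% and 53.4%, and for Hsph1 46.3% and 44.8%. Co-chaperones were therefore more unevenly spread than Hspa1a in either library, although a low count by itself also makes this share larger. The sum of the 10 genes had a median of 25 of 2700 UMIs in light-damaged and 42 in control microglia, with the 95th percentile at 159 and 195 UMIs and the highest cells at 511 and 534. As ratios the upper ends were thus closer than the medians, while in UMIs they were farther apart. Microglia with very high sums occurred in both libraries. In perivascular macrophages the median sum was 61 UMIs in light-damaged and 191 in control cells, and in cells with both sums under 10 it was 25 and 102.5.

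**Figure D4:**
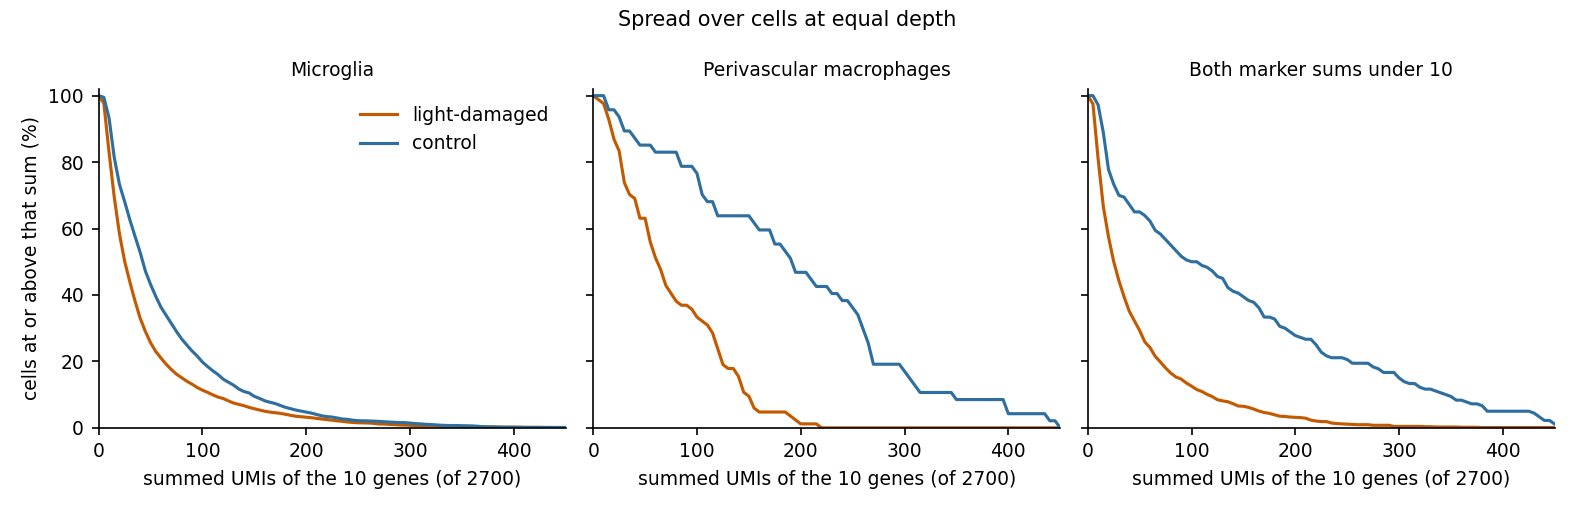
Share of cells (percent) whose 10 genes sum to at least the number of UMIs on the horizontal axis, after thinning each cell to 2700 UMIs, in the light-damaged (orange) and control (blue) library. All curves come together at the right because of how they are drawn. The median sums are 25 UMIs in light-damaged and 42 in control microglia. They are 61 and 191 in perivascular macrophages, and 25 and 102.5 in cells with both sums under 10.

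The 10 genes went together across cells. Over 4385 light-damaged and 2935 control microglia at equal depth, the 45 pairs had a median Pearson r of 0.37 and 0.35 on log(1 + UMIs per 10000), with a range of 0.14 to 0.60 and 0.15 to 0.52. Hspa1a and Hspa1b were the closest pair in both libraries (0.60 and 0.52), followed in the control library by Hspa8 and Dnajb1 (0.49). Dnaja4 was the loosest, with at most 0.23 in light-damaged and 0.29 in control microglia, at a mean of 0.0691 and 0.116 UMIs per cell. The median r of the pairs was 0.40 in 84 light-damaged and 0.59 in 47 control perivascular macrophages, and 0.44 and 0.66 in cells with both sums under 10. These values describe cells of 1 library each, which share its handling, and have no test.

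**Figure D5:**
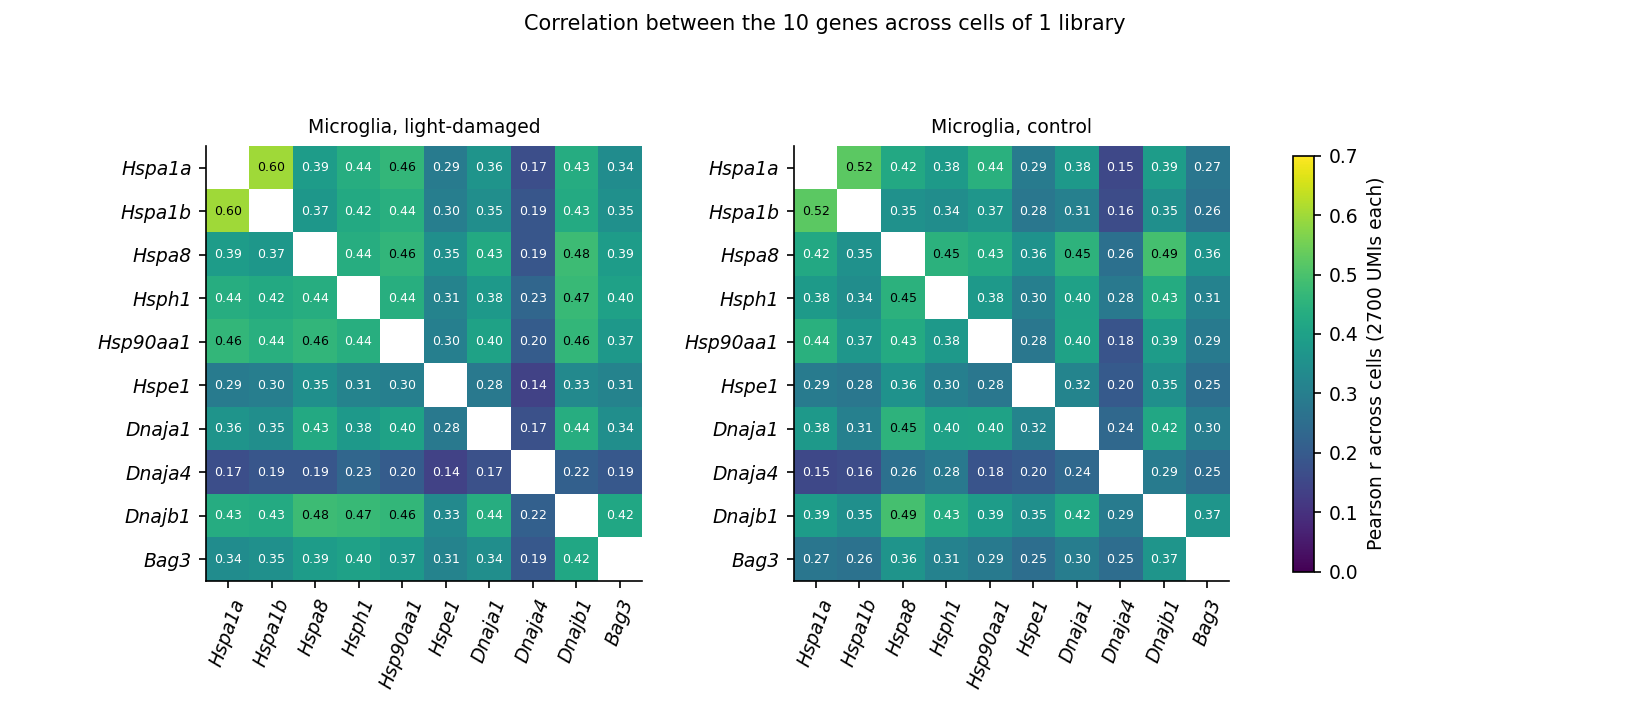
Pearson r between each pair of the 10 genes across microglia thinned to 2700 UMIs, in the light-damaged (left) and control (right) library. The Hspa1a and Hspa1b pair is highest in both panels, at 0.60 and 0.52, and the Dnaja4 rows and columns are lowest.

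Of 4698 other genes seen in at least 5% of microglia of both libraries, those whose level followed the sum of the heat-shock genes most closely were ranked by the mean r of both libraries. Jun was first, with r of 0.53 in light-damaged and 0.50 in control microglia, then Egr1 (0.52 and 0.48) and the constitutive Hsp90 gene Hsp90ab1 (0.49 and 0.50). Hmox1 (0.48 and 0.47), Nfkbia (0.48 and 0.44), Junb (0.49 and 0.43), Atf3 (0.47 and 0.44), Hspd1 (0.44 and 0.41) and Fos (0.41 and 0.40) were also among the highest. Over all 4698 genes the median r was -0.01 in both libraries, and the highest 5% began at 0.08 in light-damaged and 0.10 in control microglia. The summed list of 21 immediate-early genes had an r of 0.63 with the heat-shock sum in both libraries, and 7 of the 21 were over 1.5 times lower (5.72% of all genes were) and 0 higher (4.68%) in light-damaged microglia. At the low end stood the actin-binding peptide gene Tmsb4x (-0.37 and -0.50) and the complement gene C1qa (-0.33 and -0.35). The summed interferon list (-0.01 and 0.00) and the summed endoplasmic reticulum list (0.08 and 0.07) hardly followed the heat-shock sum. Single genes of the endoplasmic reticulum list went both ways. Atf4 (0.23 and 0.21), Dnajb9 (0.15 and 0.20) and Herpud1 (0.16 and 0.12) were among the highest 5%. Calr (-0.11 and -0.09) and Sdf2l1 (-0.05 and -0.10) were negative. The mitochondrial percentage of a cell also went the other way from the heat-shock sum (-0.22 and -0.26).

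The other chaperones and co-chaperones of the cell were mostly level between the libraries in microglia, where 5.72% of all genes were over 1.5 times lower and 4.68% higher. Of further cytosolic Hsp70, Hsp90 and Hsp110 genes, 3 of 7 passed the minimum level and 0 lay past 1.5-fold, with Hsp90ab1 at 1819 CPM in light-damaged and 1862 CPM in control microglia. None of 9 further J-domain genes, 6 BAG and Hsp70 cofactors, 8 Hsp90 co-chaperones and 2 small heat-shock genes that passed lay past it either. In those lists Dnajb4 was at 31.5 CPM in light-damaged and 45.3 CPM in control microglia, Bag1 at 92.9 and 134 CPM, and Hspb1, the small heat-shock protein Hsp27 in human cells, at 109 and 159 CPM. Among 8 mitochondrial chaperones only the disaggregase gene Clpb passed 1.5-fold, at 23.0 CPM in light-damaged and 48.9 CPM in control microglia, and Hspd1, the partner of Hspe1, was at 281 and 336 CPM. The cytosolic chaperonin and prefoldin list had 2 of 13 higher, Cct2 (134 against 87.0 CPM) and Tcp1 (125 against 82.0 CPM), and none lower. The endoplasmic reticulum list had 1 of 17 higher, Calr, which encodes calreticulin (663 CPM in light-damaged, 390 CPM in control), and none lower, a share near that of all genes, with Hsp90b1 at 524 and 360 CPM.

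Beyond microglia, some of these genes differed along with the 10 and many did not. In perivascular macrophages Hspb1 was at 382 CPM in light-damaged and 1650 CPM in control cells, Hspd1 at 725 and 2194 CPM, and Hsp90ab1 at 2909 and 6149 CPM. The Hsp90 co-chaperone genes Stip1 (88.0 against 205 CPM) and Chordc1 (60.3 against 137 CPM) and the J-domain gene Dnajb4 (57.8 against 181 CPM) were lower as well. The tallies were 4 lower and 0 higher of 8 Hsp90 co-chaperones and 2 lower and 0 higher of 9 J-domain genes, where 13.8% of all genes were lower and 17.8% higher, and genes such as Dnajb6 (186 against 181 CPM) and Cdc37 (123 against 111 CPM) were close to level. Of 17 endoplasmic reticulum genes 4 were higher, among them Calr (548 against 348 CPM), and 2 lower, Atf4 (259 against 423 CPM) and Herpud1 (226 against 367 CPM). In cells with both sums under 10, Hspb1 was at 162 CPM in light-damaged and 1054 CPM in control cells and Hspd1 at 405 and 1593 CPM, while Calr was at 722 and 294 CPM. Of the 17 endoplasmic reticulum chaperone genes that passed there, 10 were over 1.5 times higher (22.7% of all genes were) and 2 lower (23.8%) in the light-damaged library.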

How the data were processed

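Per the labels, 2 libraries of sorted retinal Cx3cr1-YFP cells were made, 1 per group. The authors deposited raw UMI counts per gene and barcode, made with Cell Ranger 2.0.0 on mm10 per the submitters' processing notes; the steps that chose the barcodes are not stated in those notes. From these counts, a barcode was kept with 300 or more genes and no more than 10% of UMIs from mitochondrial genes. Scrublet in scanpy 1.11.5 marked 1 light-damaged and 0 control barcodes as doublets, too few to have worked, so the highest scores were removed at 0.8% per 1000 barcodes (372 light-damaged, 128 control). UMIs were summed per class and library and scaled to CPM. Ratios have exact intervals of 2 Poisson counts and shares exact Clopper-Pearson intervals (scipy 1.17.1). UMIs without replicate libraries give no test, so over 1.5-fold stands in for a call. Cells were thinned without replacement to 2700 UMIs for shares and correlations. The ratio and correlation steps were tested on simulated data.

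The 10 genes, the gene lists and the marker lists were chosen with earlier results of these data known. Of 257 list genes 255 were found. Named were all 10 genes, in each list up to 4 genes with the largest ratio in microglia among those with a mean of at least 20 CPM, and the 10 genes most correlated with the sum, of which 1 is not reported here. Genes outside this rule (Tmsb4x, C1qa, Dnajb6, Cdc37, Atf4, Herpud1 and the class markers) were named after their values were seen. Positions came from GENCODE M21 (GRCm38), which mm10 names. Alternatives covered cell filters, doublets, depth, weighting, scaling, class cutoffs, the minimum level and pseudocounts.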

Additional observations from a re-analysis of the deposited data

How the results depend on the processing

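Of 376 values under alternatives, 270 stayed within the counting interval or within 1.5 times of the count, 105 moved and 1 was reversed. Reversed means a change of sign of a value that lay past 1.5-fold under the main settings. A change of sign of a smaller value was not counted as reversed. No paired analysis was possible because each group is 1 library. The cause of each move was not tested. The values below are median log2 ratios of the 10 genes.

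For light-damaged over control in microglia, thinning gave -0.27, the mean over cells -0.33, lower class cutoffs -0.55 and higher ones -0.41. In perivascular macrophages lower and higher cutoffs gave -1.32 and -0.93. In cells with both sums under 10, 500 genes and 5% mitochondrial UMIs gave -2.36, a minimum of 3000 UMIs -2.26, thinning -1.92, the mean over cells -1.65, scaling by the median gene -2.22, leaving out the top 5% of cells -2.26 and lower cutoffs -1.54.

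For perivascular macrophages over microglia in the light-damaged library, thinning gave 0.97, the mean over cells 1.05, scaling 1.60, leaving out the top cells 1.50, lower cutoffs 1.60 and a minimum of 50 CPM 1.46. In the control library the mean over cells gave 2.09, thinning 2.18, scaling 2.59, leaving out the top cells 2.57 and higher cutoffs 1.76. For cells with both sums under 10 over microglia in the light-damaged library, thinning gave 0.42, the mean over cells 0.40 and higher cutoffs 0.44. In the control library all barcodes gave 1.82, the stricter cell filter 2.12, a minimum of 3000 UMIs 1.99, the mean over cells 1.57, scaling 2.0, leaving out the top cells 2.05, lower cutoffs 1.27 and higher ones 2.01.

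Both remaining alternatives were chosen after seeing the data. With cells of 4000 to under 6000 UMIs only, light-damaged over control was 0.15 in microglia (1 gene over 1.5 times lower in place of 4). Under the main settings it was -0.46, so the sign changed here too, counted among the moved values. The ratio was -2.16 in perivascular macrophages and -1.31 in cells with both sums under 10. Perivascular macrophages over microglia was -0.55 in the light-damaged library, the reversed value. It was 1.62 in the control library, where cells with both sums under 10 over microglia was 1.94. Without cells that held other retinal markers, cells with both sums under 10 gave -2.45 between the libraries and 2.21 over microglia in control. Limits beside counting error are the depth gap for the ratios between libraries, the 137 cells for the perivascular ratios, and unlike cells for those with both sums under 10.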

Other observations

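Cells that met neither rule but had a marker sum of at least 10 (785 light-damaged and 144 control cells) held the 10 genes at 13939 CPM in light-damaged and 47675 CPM in control, with Hspa1a at 5836 and 20783 CPM. In the light-damaged library the sum lay equally close to that of microglia and that of the class with both sums under 10, each 14398 CPM. In the control library it lay close to that of the class with both sums under 10 (47740 CPM). That class was at 59962 CPM in control without cells that held other retinal markers.

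A list of 12 further stress-related and inflammatory genes held the haem oxygenase gene Hmox1 and the chemokine genes Ccl3 and Ccl4, among others. Of these 12 genes, 4 were over 1.5 times lower (5.72% of all genes were) and 1 higher (4.68%) in light-damaged microglia. They summed to 6915 CPM in light-damaged and 9837 CPM in control microglia. The list had an r of 0.52 in light-damaged and 0.55 in control microglia with the heat-shock sum. Interferon-response genes differed between the libraries in the other direction: all 8 of 12 that passed the minimum level were over 1.5 times higher in light-damaged microglia (4.68% of all genes were), with a sum of 1331 CPM in light-damaged and 362 CPM in control.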
